A study of Arabidopsis thaliana with 11 samples.

Results

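AT1G59920 and AT1G59930 are neighbouring genes of Arabidopsis thaliana chromosome 1 that RefSeq describes as MADS-box family proteins. They were chosen because their counts were much higher in endosperm without RNA polymerase IV than in wild type, and because both are on a deposited list of genes held out for the Col strain. They are 2 of the 63867 features of the experiment 1 tables and 2 of the 37336 features of the experiment 2 tables. They were selected on the total counts of homozygous mutant against wild type, so those values are given as a description with no test. Every other value of the pair in experiment 1, their split and their allele counts included, is likewise a description. Tests on the pair come from experiment 2 alone, which the choice did not use.

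MADS-box genes encode transcription factors named for a conserved DNA-binding domain. Members of their type I branch are known for activity in the female gametophyte and the endosperm, and some are imprinted, meaning that the copy from a single parent gives most of the transcript. NRPD1 is the largest subunit of RNA polymerase IV, a plant polymerase that starts the making of small RNAs that guide DNA methylation. Endosperm is the nourishing tissue of the seed and carries 2 maternal genomes for each paternal genome. RefSeq's note on AT1G59930 calls it a maternally expressed imprinted gene.

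Poly(A) RNA of hand-dissected endosperm was sequenced in 11 libraries, each from seeds of crosses between several plants, and in all of them the mother was labelled Ler and the father Col. Experiment 1, at 6 days after pollination, compared a pair of wild-type libraries (n = 2) with homozygous nrpd1 (n = 3), whose mother and father both carried nrpd1a-4. Experiment 2, at 6 to 7 days after pollination, compared wild type (n = 3) with paternal nrpd1 (n = 3), the cross of a Ler mother without the mutation and an nrpd1a-4 Col father. The experiments differed in library kit and read length, so no test crosses them.

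AT1G59920 lies at chr1:22059424-22059842 and AT1G59930 at chr1:22060924-22061516 of the RefSeq assembly TAIR10.1, both on the minus strand, each with a single exon. The annotated exons are 419 and 593 bases long and 1081 bases apart, and RefSeq marks the model of AT1G59920 as partial at its 3′ end. The genes are a tandem duplicate. A BLAST alignment of the regions matched 1360 bases at 95.1% identity, from base -655 counted from each start codon to base 696 in AT1G59920 and base 692 in AT1G59930. Their coding sequences are 399 bases each and differ at 5 positions, which is 98.7% identity. The first 279 coding bases are the same in both and are shown because a read from them cannot be given to either gene. The capitals mark the start codon, and the sequence lies at chr1:22059544-22059822 in AT1G59920 and at chr1:22061203-22061481 in AT1G59930.
AT1G59920 and AT1G59930, coding bases 1 to 279: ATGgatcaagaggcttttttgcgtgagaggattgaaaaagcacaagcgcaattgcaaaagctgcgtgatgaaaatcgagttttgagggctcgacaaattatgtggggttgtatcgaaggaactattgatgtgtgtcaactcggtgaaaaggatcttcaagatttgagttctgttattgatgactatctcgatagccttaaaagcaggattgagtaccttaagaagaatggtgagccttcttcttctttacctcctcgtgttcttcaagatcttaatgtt

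All 5 coding differences fall in the last part of the coding sequence, shown from base 260 to base 399 with the differing bases in capitals. The stretches lie at chr1:22059424-22059563 and chr1:22061083-22061222.
AT1G59920, coding bases 260 to 399: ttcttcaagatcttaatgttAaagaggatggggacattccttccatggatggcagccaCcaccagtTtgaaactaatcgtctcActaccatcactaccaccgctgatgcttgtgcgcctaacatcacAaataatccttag
AT1G59930, coding bases 260 to 399: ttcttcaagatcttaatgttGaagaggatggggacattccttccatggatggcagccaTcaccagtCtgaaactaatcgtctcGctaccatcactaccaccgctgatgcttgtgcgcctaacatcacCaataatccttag
Counted from the first base of the start codon, with the AT1G59920 base first, the substitutions are A280G, C318T, T326C, A343G and A387C.

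The 458 bases before the start codon are also identical. The 150 bases directly upstream of the annotated transcript start of AT1G59930 are shown because they stand in front of both genes. They lie at chr1:22059858-22060007 and chr1:22061517-22061666.
AT1G59920 and AT1G59930, bases -185 to -36 from the start codon: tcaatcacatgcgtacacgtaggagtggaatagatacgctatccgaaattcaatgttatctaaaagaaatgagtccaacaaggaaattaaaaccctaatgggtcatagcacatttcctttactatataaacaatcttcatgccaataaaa

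These sequences set what the counts can tell apart. Of the 40-base windows of each transcript, 116 of 380 (30.5%) in AT1G59920 and 261 of 554 (47.1%) in AT1G59930 had no second copy in the genome, and 264 were shared by the pair. With windows of 100 bases, the read length of experiment 1, 120 of 320 (37.5%) and 279 of 494 (56.5%) were unique. No window had more than 2 places. In experiment 2 the deposited tables set apart alignments that were not unique, 8.35% to 9.33% of the counts of a library. How reads with 2 places were treated in experiment 1 is not given in the sources used here, so the split of the counts between the genes is uncertain, while their sum is less so.

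**Figure D1:**
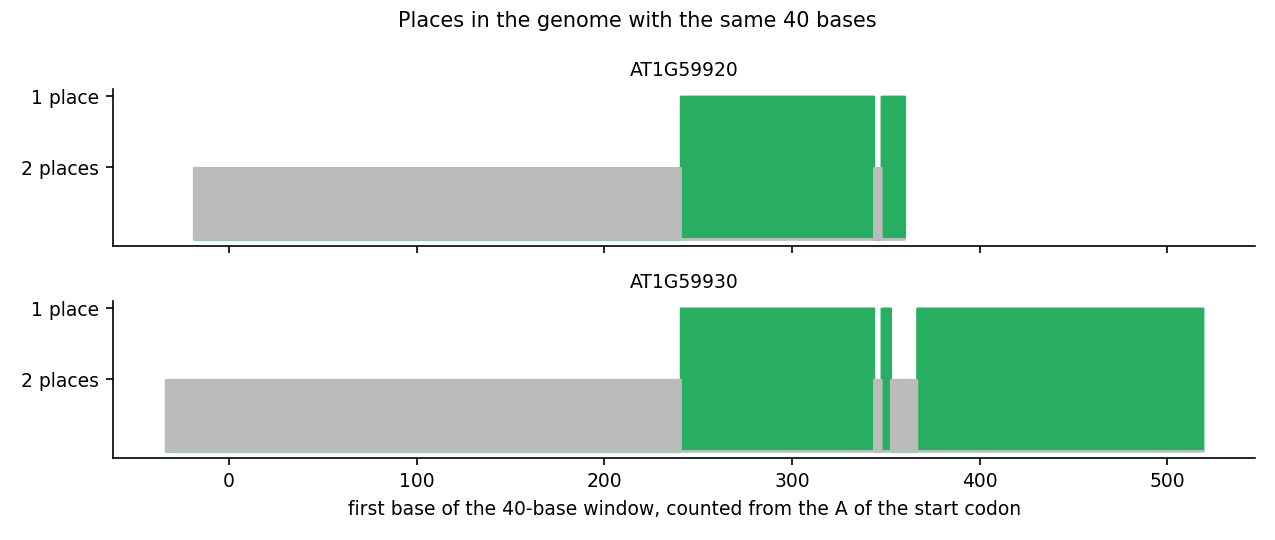
Each panel plots, for a gene of the pair, whether the 40 bases that start at a position of its annotated transcript occur at 1 place (green) or 2 places (grey) in the genome, with position counted from the first base of the start codon. The early part of both transcripts is grey, and unique windows are 30.5% of AT1G59920 and 47.1% of AT1G59930.

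Total counts were 15926510 to 20817788 per library in experiment 1 and 24845721 to 35629462 in experiment 2. Levels are given as CPM, the count of a gene relative to the library's total, scaled by edgeR's TMM factors. The level of NRPD1 was 43.6 ± 5.65 CPM (SD, n = 2) in the wild type of experiment 1 against 26.4 ± 4.38 (SD, n = 3) in homozygous nrpd1. In experiment 2 it was 9.74 ± 1.15 without the mutation against 3.95 ± 2.06 with the mutant father (SD, n = 3 each). In experiment 2, wild-type replicate 1 and paternal nrpd1 replicate 2 were more like each other than like any other library. Spearman's rho across features was 0.957 between them, and they are called below the libraries that stood apart. The lowest rho of the paternal replicate was 0.793, with wild-type replicate 2, and that of wild-type replicate 1 was 0.875. Wild-type replicate 3 fell to 0.849, so by lowest rho wild-type replicate 1 was not the least like the others. Its median rho, 0.919, was above the 0.901 of wild-type replicate 2. Wild-type replicates 2 and 3 were likewise nearest to each other, at 0.976. To have stood apart is thus a name only, and leaving out the libraries so named was not planned in advance. Homozygous nrpd1 replicate 2 was the least like the others in experiment 1, at 0.936 to 0.959. In such bulk samples, fewer cells of a type and less RNA per cell cannot be told apart. The labels name replicates without saying that they come from separate plants, so p-values measure the spread between these samples. Intervals on counts cover counting error only.

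AT1G59920 was nearly silent in wild-type endosperm of experiment 1 and clearly expressed in the homozygous mutant. It had 8 and 3 counts in the wild-type libraries, which is 0.447 and 0.156 CPM. It had 390, 349 and 585 counts in the homozygous nrpd1 libraries, which is 22.9, 23.4 and 27.8 CPM. Every mutant library was above both wild-type libraries, with the lowest mutant 51.2-fold above the highest wild type. The means were 0.301 ± 0.206 CPM (SD, n = 2) and 24.7 ± 2.72 (SD, n = 3), an 81.9-fold difference. The wild-type mean rests on 11 counts in all, so the ratio of pooled counts, 84.4, had a 95% counting interval of 47.0 to 169. The fitted log2 difference was 6.35 (SE 0.34).

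AT1G59930 was already expressed in the wild type and was higher in the mutant by a smaller factor. It had 145 and 114 counts in the wild-type libraries, or 8.10 and 5.93 CPM. It had 1406, 1292 and 2014 counts in the homozygous nrpd1 libraries, or 82.5, 86.6 and 95.8 CPM. The groups did not overlap, and the lowest mutant was 10.2-fold above the highest wild type. The means were 7.01 ± 1.54 CPM (SD, n = 2) and 88.3 ± 6.81 (SD, n = 3), a 12.6-fold difference. The ratio of pooled counts was 12.8 (counting interval 11.3 to 14.5) and the fitted log2 difference was 3.66 (SE 0.17). Per kilobase of annotated exon, AT1G59930 was above AT1G59920 in both groups, at 11.8 against 0.719 CPM per kb in wild type and 148.9 against 59.0 in the mutant.

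edgeR's quasi-likelihood test called 43 of 18570 features higher in homozygous nrpd1, which is 0.232%, and 19 lower, which is 0.102%, at a Benjamini-Hochberg adjusted p under 0.05. Both genes are among the 43, and nothing is read from this because the contrast chose them. By size of the fitted log2 difference they ranked 60 and 138 among all features tested. Among the 2198 tested genes of chromosome 1 on the holdout list they ranked 9 and 21. That list had 16 genes called higher and 10 called lower on chromosome 1, with a median log2 difference of 0.04, beside a median of 0.00 over all features tested. The 62 calls in both directions depended on single libraries, with 0 left without either wild-type library, 6 without mutant replicate 1 and 34 without mutant replicate 3.

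**Figure D2:**
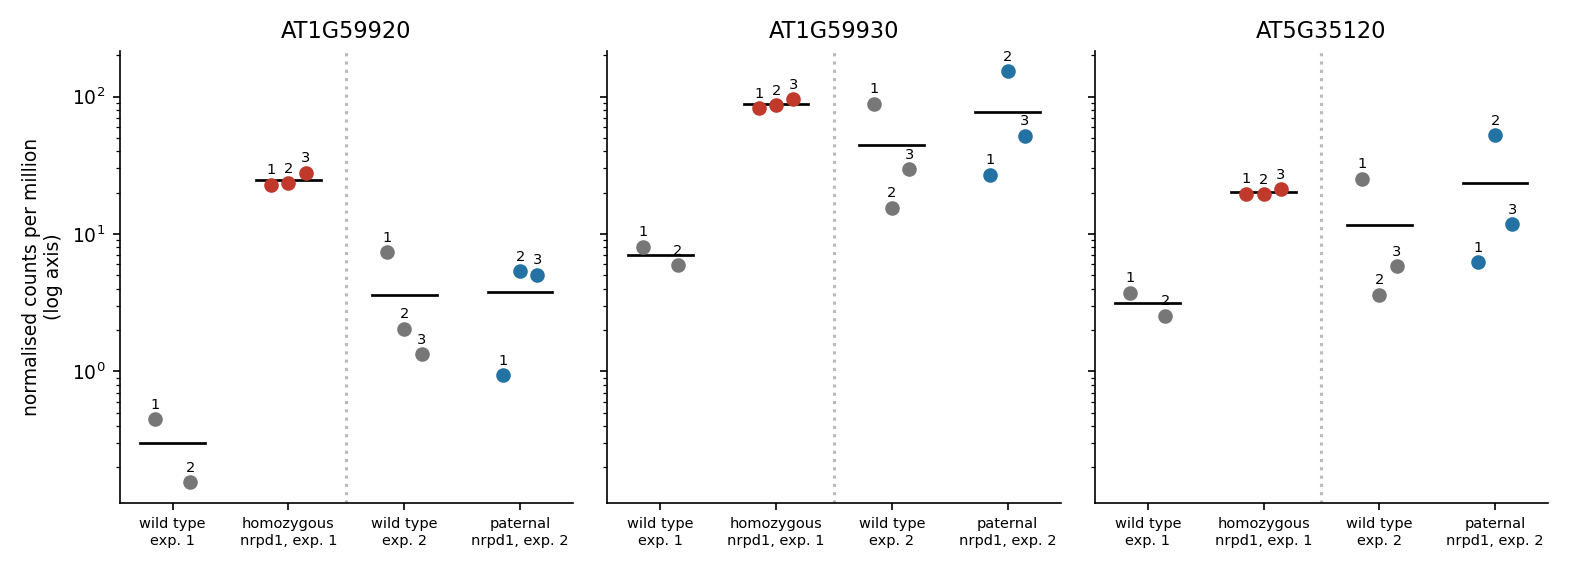
Each panel plots the TMM-scaled CPM of a gene in every library on a log axis, with the replicate number beside each point, a line at the group mean, and a dotted line between the experiments. The homozygous nrpd1 libraries lie above both wild-type libraries for all 3 genes, while the wild-type and paternal nrpd1 libraries of experiment 2 overlap.

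The unequal differences of the 2 genes changed the split of the pair's counts, which follows from the same counts and adds no separate result. The share that fell on AT1G59920 was 5.23% and 2.56% in the wild-type libraries of experiment 1 and 21.7%, 21.3% and 22.5% in the mutant libraries. The mutant libraries lay close together, at 21.8 ± 0.629% (SD, n = 3), while the wild-type shares rest on 8 and 3 counts of AT1G59920. For scale, AT1G59920 holds 30.8% of the pair's unique 40-base windows and 30.1% of its unique 100-base windows. The sum of both genes was 8.55 and 6.08 CPM without the mutation against 105, 110 and 124 CPM in homozygous nrpd1, a fitted log2 difference of 3.95.

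**Figure D3:**
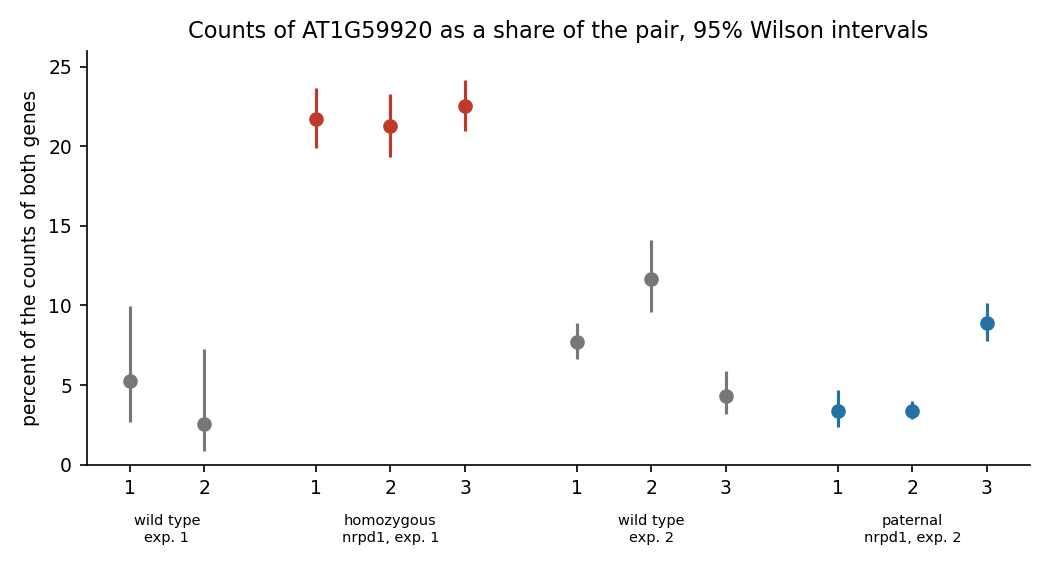
The plot shows the percent of the counts of both genes that fell on AT1G59920 in each library, with 95% Wilson intervals and replicate numbers on the horizontal axis. The 3 homozygous nrpd1 libraries sit between 21.3% and 22.5%, and every other library is at or below 11.7%.

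In experiment 2, with the mutation inherited from the father alone, neither gene differed from wild type beyond the spread between libraries. AT1G59920 had 165, 91 and 38 counts in wild type, or 7.38, 2.05 and 1.33 CPM. It had 33, 138 and 192 counts in paternal nrpd1, or 0.934, 5.37 and 5.07 CPM. The groups overlapped, the highest library was a wild type and the lowest a mutant. The means were 3.59 ± 3.31 and 3.79 ± 2.48 CPM (SD, n = 3 each). The log2 difference was 0.09 (SE 0.82, 95% interval -1.81 to 1.98), with an adjusted p of 0.973 by edgeR's quasi-likelihood test.

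AT1G59930 had 1979, 690 and 844 counts in wild type, or 88.5, 15.5 and 29.5 CPM. It had 952, 3925 and 1964 counts in paternal nrpd1, or 26.9, 152.7 and 51.8 CPM. The groups overlapped, and the highest library of each group was the one that stood apart. The means were 44.5 ± 38.7 and 77.1 ± 66.6 CPM (SD, n = 3 each). The log2 difference was 0.79 (SE 0.77, 95% interval -0.99 to 2.58), with an adjusted p of 0.726 by edgeR's quasi-likelihood test. On the fold scale the intervals ran from 0.503 to 5.98 for AT1G59930 and from 0.286 to 3.94 for AT1G59920. Whether the homozygous and the paternal mutant differ in their effect on the pair was not tested, since they come from different experiments.

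Without the libraries that stood apart, the log2 differences were 0.77 for AT1G59920 and 0.76 for AT1G59930, with adjusted p of 0.673 and 0.419 by edgeR. Leaving out paternal nrpd1 replicate 2 alone turned both, to -0.25 and -0.17. For AT1G59920 the sign also turned without wild-type replicate 2 or 3, or without paternal replicate 3, down to -0.31. No feature was called in this contrast, 0 of 18901 tested, while 1496 had an unadjusted p under 0.05 by edgeR and DESeq2 called 8.

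The share of the pair on AT1G59920 was 7.70%, 11.7% and 4.31% in the wild-type libraries of experiment 2. In the paternal mutant it was 3.35%, 3.40% and 8.91%. The groups overlapped, with means of 7.89 ± 3.68% and 5.22 ± 3.19% (SD, n = 3 each) and a two-sided exact permutation p of 0.5, or 0.75 adjusted over the 3 such tests made, where the smallest p possible was 0.1. Wild-type levels differed between experiments for both genes, with means of 0.301 and 3.59 CPM for AT1G59920 and 7.01 and 44.5 CPM for AT1G59930 in experiments 1 and 2. Kit, read length and days differed with them and cannot be told apart. By mean level AT1G59930 was ordered as wild type of experiment 1, wild type of experiment 2, paternal nrpd1 and homozygous nrpd1, and the last 3 of these had ranges that overlapped. AT1G59920 had the same order, but there homozygous nrpd1 overlapped no other group.

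Reads assigned to a parental allele split the counts of AT1G59930 by parent in experiment 2. It had 414 Ler and 34 Col counts in wild-type replicate 1, 116 and 17 in replicate 2, and 206 and 17 in replicate 3. The maternal (Ler) share was thus 92.4% (95% Wilson interval 89.6 to 94.5), 87.2% (80.5 to 91.9) and 92.4% (88.1 to 95.2). Every library lay above the 66.7% given by 2 maternal genomes to 1 paternal genome. The mean was 90.7 ± 2.99% (SD, n = 3), and the ratio of Ler to Col was 5.28 times that of 2 to 1, a log2 excess of 2.40 (SE 0.19) with an adjusted p of 8.5e-08 by edgeR's quasi-likelihood test. Of 7421 genes with enough allele counts, 734 (9.89%) were called above 2 to 1 in these libraries. RefSeq's imprinting note is about the same gene, and since the mother was always Ler, parent and strain cannot be told apart here. Seed coat RNA was also in these libraries, where all 591, 456 and 247 allele counts of the seed coat marker BAN were Ler. The part of such tissue in the maternal share of AT1G59930 was not tested.

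In paternal nrpd1 the maternal share did not differ from wild type beyond the spread between libraries. The counts were 265 Ler and 31 Col in replicate 1, 1056 and 54 in replicate 2, and 352 and 49 in replicate 3. The shares were 89.5%, 95.1% and 87.8%, which overlap the wild-type range, and the highest was in the replicate that stood apart. The mean was 90.8 ± 3.84% (SD, n = 3), 0.146 percentage points above wild type, with a two-sided exact permutation p of 1. In the model of both alleles the log2 difference in the Ler to Col ratio was 0.09 (SE 0.38, 95% interval -0.73 to 0.91), with an adjusted p of 1 by edgeR. This contrast called 5 of 7371 genes, or 0.0678%. Without the libraries that stood apart the difference was -0.25.

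Taken alone, the Ler counts differed by 1.03 on the log2 scale (SE 0.81) and the Col counts by 0.80 (SE 0.57, 95% interval -0.48 to 2.08), with adjusted p of 0.742 and 0.789 by edgeR. These are the maternal, wild-type copies and the paternal copy, which came from the mutant parent, and neither difference exceeded the spread between libraries. edgeR called 0 of 8373 genes on Ler counts and 0 of 6242 on Col counts, with 523 and 365 at an unadjusted p under 0.05. With no filter on low counts these became 7 and 60 calls. Allele counts were 22.6%, 19.3% and 26.4% of the counts of AT1G59930 in the wild-type libraries, against 31.1%, 28.3% and 20.4% in the mutant, with a two-sided exact permutation p of 0.4. AT1G59920 had no allele count in any library of experiment 2, so its parental shares were not analysed here.

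Experiment 1 gave no allele ratio for either gene in wild type, where 5.91% of 10110 other genes with enough allele counts were called above 2 to 1 and 11.4% below it. None of the 145 and 114 counts of AT1G59930 was assigned to an allele, which allows an assigned share of up to 2.07% and 2.63%. In homozygous nrpd1, 88, 84 and 156 counts were assigned, all to Col, which is 6.26%, 6.50% and 7.75% of the gene's counts. With 0 Ler counts the Ler share could be up to 3.41%, 3.57% and 1.92%. This sets no limit on the maternal share, since the maternal copies of the region read as Col in these libraries, as described below. AT1G59920 had 2, 1 and 1 Col counts and 0 Ler counts in the same libraries, and none in wild type. For AT1G59930 the assigned share was thus 0 in both wild-type libraries and above their limits in all 3 mutant libraries, while AT1G59920 had too few counts for such a comparison.

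The genes around the pair show the same allele pattern in the homozygous mutant. Over the 10 nearest genes on each side, all of them on the holdout list, Ler made up 63.5% and 63.6% of the allele counts in the wild-type libraries of experiment 1. In homozygous nrpd1 it made up 0 of 2684, 0 of 3200 and 1 of 4380 allele counts, the last being 0.0228%. In experiment 2 the same genes gave 70.1%, 71.2% and 68.5% with a wild-type father, and 71.4%, 63.9% and 66.8% with a mutant father. Ler reads across the whole neighbourhood were therefore at or near 0 in the homozygous mutant libraries and in no other group. The list names 3492 annotated genes of chromosome 1 between 17867102 and 30425192 (TAIR10.1), and the pair lies inside that span. In experiment 1 the loss of NRPD1 and the Col sequence at the maternal copies of the pair come together in every mutant library and cannot be told apart. In experiment 2 the maternal copies read as Ler in both groups.

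**Figure D4:**
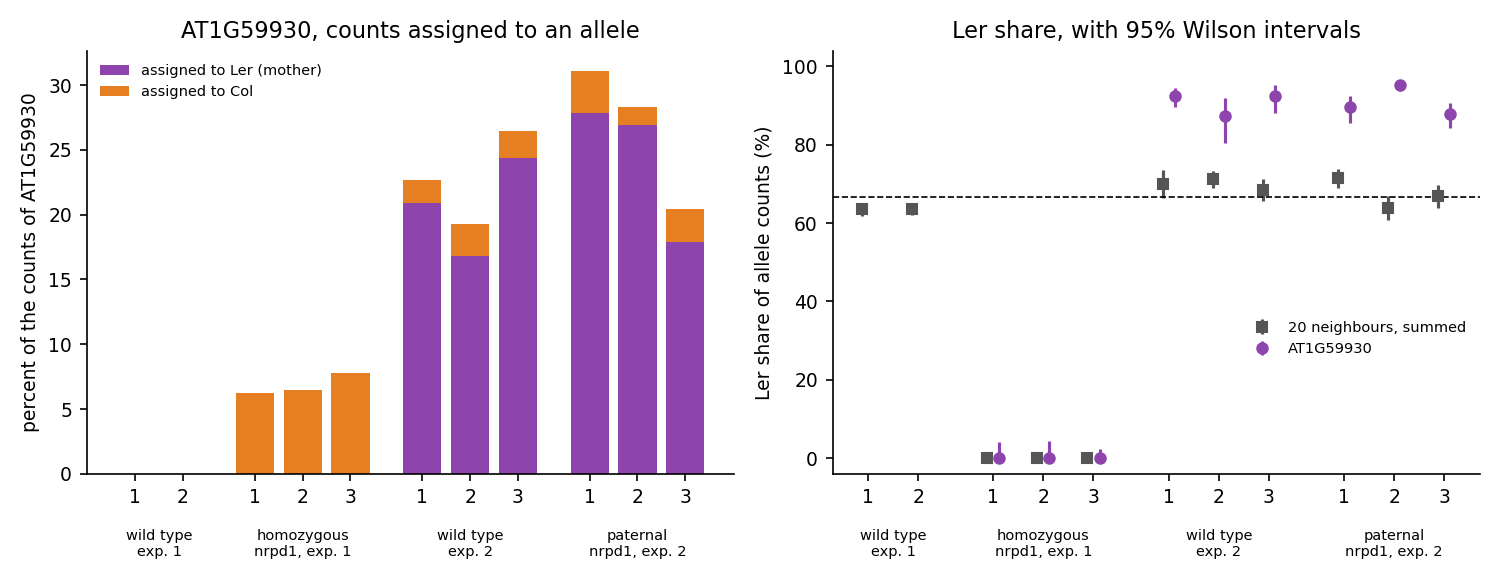
The left panel plots the percent of the counts of AT1G59930 assigned to Ler (purple) and Col (orange) in each library, and the right panel the Ler share of allele counts, with 95% Wilson intervals, for AT1G59930 (circles) and for the 20 neighbours summed (squares), with a dashed line at 66.7%. In experiment 2 AT1G59930 is above its neighbours in every library, and in homozygous nrpd1 both are at or near 0.

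edgeR called no neighbour of the pair in either mutant. Of the 20, 13 were tested in the homozygous contrast and 12 in the paternal contrast, and 0 were called in each, beside 62 of 18570 (0.334%) and 0 of 18901 over all features. Their median log2 differences were 0.13 and 0.04, beside 0.00 and 0.01 over all features tested. In the paternal contrast 6 were positive and 6 negative, from -1.76 for NAT7 to 2.45 for AT1G59860. The smallest adjusted p among them was 0.616 by edgeR. AT1G59910, a formin homology gene and the nearest on one side, was at 28.7 CPM with a wild-type father against 10.4 with a mutant father. In experiment 1 it was at 74.0 CPM without the mutation against 86.6 with it. E1 ALPHA, a subunit of pyruvate dehydrogenase, was at 131 and 143 CPM. AT1G59960, described as an oxidoreductase, had the largest difference among them, at 4.19 and 0.622 CPM, a log2 difference of -2.78 with an adjusted p of 0.123 by edgeR. In the homozygous contrast DESeq2 called 3 of the 14 neighbours it tested, AT1G59960 and AT1G60000 lower and AT1G60010 higher, and in the paternal contrast 0 of 15. The share of all features that DESeq2 called is not given here, so nothing is read from these counts. In the wild type of both experiments the maternal share of AT1G59960 was above 2 to 1, with a log2 excess of 4.30 and 3.76 and adjusted p of 0.0172 and 0.000178 by edgeR.

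**Figure D5:**
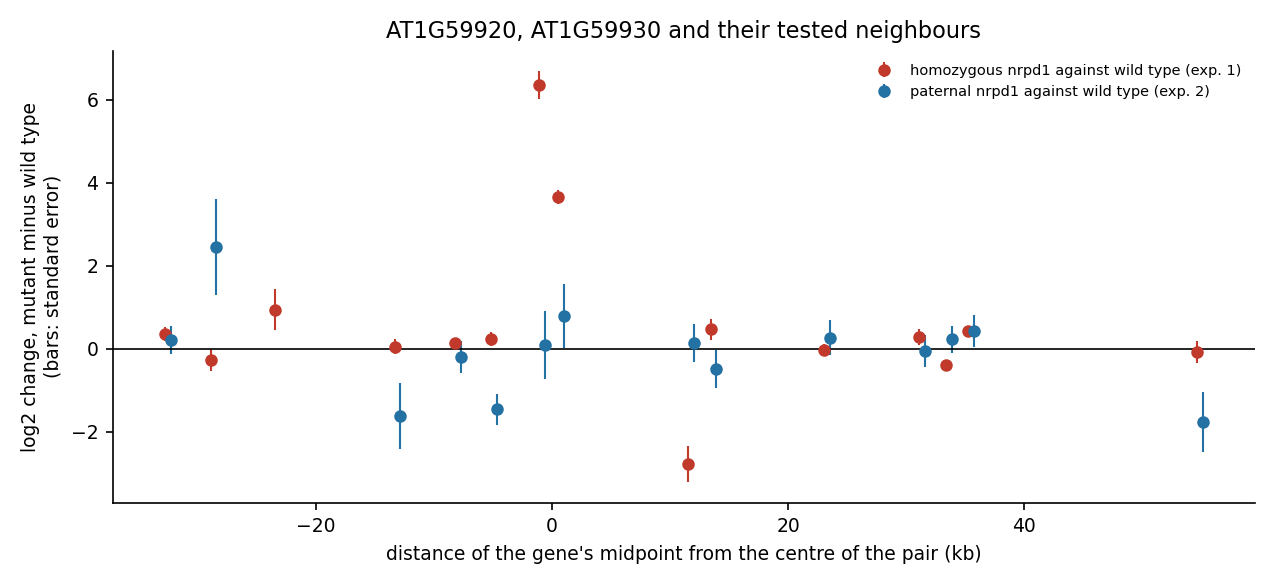
The plot shows the log2 difference from wild type, with its standard error, for the pair and each tested neighbour, against the distance of the gene's midpoint from the centre of the pair in kb. In homozygous nrpd1 (red) the pair is at 6.35 and 3.66, and edgeR called no neighbour in either mutant.

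The genome holds a close relative of the pair outside the listed regions. AT5G35120, on the minus strand of chromosome 5 at chr5:13386852-13387175 (TAIR10.1), is also described as a MADS-box family protein and aligns to the coding sequence of AT1G59930 over 399 bases at 91.7% identity. In the reference genome it shares no 40-base window with the pair, and the longest run in common is 32 bases. No full-length read of that sequence therefore matches it and the pair exactly. No Ler sequence was used, so where Ler reads of these genes align was not tested. The first 140 coding bases are shown for both genes, with the 7 that differ in capitals, at chr5:13387036-13387175 and chr1:22061342-22061481.
AT5G35120, coding bases 1 to 140: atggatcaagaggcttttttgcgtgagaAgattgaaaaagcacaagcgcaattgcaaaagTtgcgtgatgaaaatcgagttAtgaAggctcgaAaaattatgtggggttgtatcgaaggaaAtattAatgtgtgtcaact
AT1G59930, coding bases 1 to 140: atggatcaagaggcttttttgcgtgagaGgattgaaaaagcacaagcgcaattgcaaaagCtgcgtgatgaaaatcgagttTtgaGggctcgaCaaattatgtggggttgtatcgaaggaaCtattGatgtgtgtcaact

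AT5G35120 rose in homozygous nrpd1 as well. Its counts were 67 and 49 without the mutation against 334, 290 and 444 with it, and the groups did not overlap. The means were 3.15 ± 0.846 CPM (SD, n = 2) and 20.1 ± 0.929 (SD, n = 3), a log2 difference of 2.67 (SE 0.20) with an adjusted p of 0.0168 by edgeR's quasi-likelihood test. The call was lost without either wild-type library (adjusted p 0.179 and 0.257) and without mutant replicate 1 or 3 (0.0965 and 0.0635), while the difference stayed between 2.42 and 2.97. DESeq2 and the fit with the replicate number as a block kept it.

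Its allele counts differ from those of the pair. Ler made up 25 of 25 and 20 of 20 allele counts in the wild-type libraries, against 114 of 115, 99 of 100 and 166 of 166 in homozygous nrpd1. The maternal copies of AT5G35120 thus read as Ler in both groups of experiment 1, where those of the pair read as Col in the mutant. From 34.4% to 40.8% of the counts of AT5G35120 were assigned to an allele in experiment 1, and none in experiment 2. In wild type AT1G59930 had none assigned in experiment 1 and 19.3% to 26.4% in experiment 2. The cause of this was not tested. In experiment 2 the levels of AT5G35120 were 25.2, 3.62 and 5.84 CPM with a wild-type father against 6.23, 52.2 and 11.7 with a mutant father. The libraries that stood apart were again the highest of their groups, and the log2 difference was 1.02 (SE 0.93) with an adjusted p of 0.709 by edgeR.

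The other genes nearest in sequence are PHE1 and PHE2, known type I genes, of which PHE1 is an imprinted gene expressed from the father's copy. Each aligned in 2 stretches, at 68.9% and 76.2% identity in PHE1 and 72.0% and 76.9% in PHE2. The stretches began after the first 247 coding bases of each, the end of the protein where the DNA-binding domain of MADS-box proteins usually lies. On the side of AT1G59930 they began at coding base 2, so those 247 bases had no aligned counterpart in its annotated coding sequence. Whether the pair encodes that domain was not tested. PHE1 was low in both experiments, with group means of 0.363 CPM against 0.0783 for the homozygous mutant and 1.22 against 0.739 for the paternal mutant.

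Of the 118 other genes that RefSeq names as MADS-box or agamous-like, 39 passed the filter on low counts in the homozygous contrast. AT5G35120 was the only one of the 39 called, with 0 called lower, beside 0.232% called higher over all features. With the replicate number as a block 3 of the 39 were called higher, and with DESeq2 only AT5G35120 of 54. Of the 39, 30 (76.9%) had a positive log2 difference, beside 50.5% of all features tested, and the median was 0.28, beside 0.00. In the paternal contrast 44 were tested, 0 were called, 30 (68.2%) were positive, beside 50.9% of all features, and the median was 0.35 beside 0.01. A narrower list of 20 type I genes had 3 tested in the homozygous and 9 in the paternal contrast, none called in either. The 12 genes of the polymerase IV pathway list include RDR2, which makes the RNA double-stranded, and DCL3, which cuts it. All 12 were tested and edgeR called none in either contrast, with medians of -0.13 and -0.95. Of the 12, 0 had a positive log2 difference in the homozygous and 1 in the paternal contrast, beside 50.5% and 50.9% of all features. DESeq2 called 2 of them lower in homozygous nrpd1, NRPD1 among them. The shares of all features called by DESeq2 and by the fit with the block are not given here. Nothing is therefore read from the calls of those 2 fits on the MADS-box and pathway genes.

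The genes whose levels followed the pair most closely were found by Pearson's r of log2(CPM + 0.5), centred on the wild type of the same experiment, over the 11 libraries and 15615 features. The measure takes in the contrast that chose the pair, so it is a description. AT1G59920 and AT1G59930 had an r of 0.946 with each other. The highest for AT1G59930 were LysoPL2, a lysophospholipase, at 0.973, AT5G35120 at 0.963, AT1G63200, a cystatin-like gene, at 0.953, and PELPK2, a hydroxyproline-rich protein gene, at 0.951. For AT1G59920 they were AT4G03930, a pectin methylesterase inhibitor relative, at 0.977, LysoPL2 at 0.966, PELPK2 at 0.965, ARL, an ARGOS-like gene, at 0.961 and PELPK1 at 0.958. AT4G03930 had log2 differences of 4.61 in homozygous and -0.18 in paternal nrpd1, and LysoPL2 1.34 and 0.26. LysoPL2, AT1G63200 and ARL are on the holdout list, as the pair is, while AT4G03930, AT5G35120, PELPK1 and PELPK2 are not.

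For comparison, the 3 listed genes of chromosome 1 with the largest called rise in homozygous nrpd1 were AT1G67105, an RNA with no protein product, AT1G65985 and AT1G72230, a cupredoxin gene. Their log2 differences were 7.98, 7.52 and 6.99, with adjusted p of 0.00967, 0.0168 and 0.0457 by edgeR. AT1G67105 had 1 count in each wild-type library and 211, 218 and 396 in the mutant. They did not pass the filter on low counts in the paternal contrast.

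Marker genes of tissues next to the endosperm were present in all libraries. Summed over 11 seed coat markers they ranged from 1322 to 1694 CPM in the wild type of experiment 1 against 1288 to 1696 in homozygous nrpd1. In experiment 2 they ranged from 388 to 475 against 265 to 536 CPM in the paternal mutant. Summed over 10 embryo markers the ranges, in the same order, were 170 to 171 against 105 to 176 CPM and 311 to 487 against 406 to 858 CPM, with CUC2 at 0 in every library. Summed over 12 endosperm markers they were 314 to 357 against 219 to 362 CPM and 280 to 312 against 163 to 233 CPM. edgeR called no gene of these lists in either contrast.

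The sums hide single markers. The highest seed coat sum in the wild type of experiment 1, 1694 CPM in replicate 2, held 796 CPM of the marker ARA12. There ARA12 had 8781 Col and 802 Ler counts, a Ler share of 8.37%. In the other libraries of experiment 1 ARA12 was at 407 to 483 CPM, with Ler shares of 81.9% to 87.4%. The cause was not tested, and equal sums do not show equal seed coat RNA. BAN, a seed coat gene of proanthocyanidin synthesis that is on the holdout list of chromosome 1, was at 21.7 and 13.2 CPM in the wild type of experiment 1 against 215, 168 and 88.9 in homozygous nrpd1. The groups did not overlap, as for the pair. The log2 difference was 3.17 (SE 0.46), with an adjusted p of 0.101 by edgeR, 2.0e-14 by DESeq2 and 0.0033 with the replicate number as a block in edgeR. Of the other 10 seed coat markers, TTG2, STK and TT10 were also higher in every mutant library than in both wild-type libraries, and AHA10 and MUM4 were lower in every one. The endosperm markers RGE1 and AGL62 were higher in the same way, and the embryo marker WOX8 was lower. In every paternal nrpd1 library MUM4, PLT1, HDG3 and FIS2 were below all wild-type libraries. The share of all features that separate like this was not counted, so nothing is read from these separations. In experiment 2 BAN was at 55.0, 23.4 and 18.4 CPM in wild type against 11.4, 57.6 and 113 in paternal nrpd1, which overlap. The embryo sum of paternal nrpd1 replicate 2 was almost all LEC1, at 799 CPM, while WOX2, WOX8, STM and CUC1 were each higher in another library of experiment 2. The part of these tissues in the levels of the pair and in the maternal share of AT1G59930 was not tested.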

How the data were processed

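Endosperm mRNA of 11 libraries was measured. Per feature, the deposited tables give raw counts (total, Col and Ler), and the authors' list of held-out genes has no measurement. TopHat, HTSeq, FastQC, cutadapt and Trim Galore are named in the submitters' processing notes, with the build TAIR10 but no versions or roles. How alleles were assigned, and whether strand was used, is not given in the sources used here. The 5 summary lines of the experiment 2 tables (11.6% to 13.3% of their counts) were left out. Allele counts were 17.8% to 18.4% of the total in experiment 1 and 7.05% to 7.82% in experiment 2.

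Tests used edgeR 4.0.16 (quasi-likelihood, TMM, filterByExpr, Benjamini-Hochberg over all features, threshold 0.05) in R 4.3.3. Share tests needed a mean of 20 allele counts per library and modelled Ler and Col counts with library terms. Permutation tests were exact (scipy 1.17.1). Sequences came from RefSeq TAIR10.1, aligned with BLAST 2.17.0. Wilson intervals used the 95% level, and a count of 0 was read as up to 3 counts. PCR reads without molecular identifiers are not independent molecules. The fits were tested on simulated data. The text names the pair, NRPD1, the 10 genes on each side, the family by RefSeq description, the 5 genes most alike in level to each, and the 3 listed genes with the largest called rise. PHE2 was added for its sequence, and the tissue markers named one by one were chosen after their values were seen. The members and lists were chosen with earlier results of these data known. Alternatives were RLE size factors, DESeq2 1.42.0, no filter, other count minimums and library sizes, the replicate number as a block, leaving out libraries, and the pair summed.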

Additional observations from a re-analysis of the deposited data

How the results depend on the processing

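In the homozygous contrast 62 features were called, against 524 by DESeq2, 302 with the replicate number as a block and 0 to 44 without each replicate in turn. Without each replicate the log2 difference was 5.77 to 7.24 for AT1G59920 and 3.45 to 3.89 for AT1G59930. In the paternal contrast 0 features were called, 8 by DESeq2 and 0 without each replicate. There AT1G59920 ranged from -0.31 to 1.16 and AT1G59930 from -0.17 to 1.77 without each replicate, and AT5G35120 from -0.36, without paternal replicate 2, to 2.30. The maternal share of AT1G59930 in wild type was 89.8% to 92.4% without each replicate, with a log2 excess of 2.21 to 2.60.

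Between paternal nrpd1 and wild type the maternal share was called for 5 genes, for 3 with a minimum of 50 allele counts, for 2 without the libraries that stood apart and for 2 to 10 without each replicate. That of AT1G59930 then differed by -0.43 to 0.42, and by -0.25 without the libraries that stood apart. Ler counts alone gave 7 calls and Col counts alone 60 with no filter on low counts. AT1G59930 ranged from -0.16 to 1.98 on Ler and from 0.42 to 1.55 on Col counts without each replicate. The causes were not tested.

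Replicate numbers did not pair the libraries of experiment 2, where the correlations of same-numbered deviations were -0.55, -0.73 and 0.15. In experiment 1 they were 0.31 and 0.29, against -0.31 to 0.14 for libraries of unlike number. With only 2 pairs there, these values cannot settle whether the numbers pair the libraries of experiment 1. With the replicate block the paternal differences were 0.37 for AT1G59920 and 0.80 for AT1G59930, with 0 features called. The share of experiment 1 wild type without each replicate could not be fitted, since 1 library was left, and neither gene had allele counts there. Low counts limit AT1G59920 most, with 11 counts in the wild type of experiment 1 and 4 allele counts in all libraries.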
